A study of Mus musculus with 4 samples.

Results

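The 9 genes described here, Pf4, Itga2b, Gp1bb, Gp9, Vwf, Ppbp, Plek, Fli1 and Sdpr, belong to the megakaryocyte and platelet program and were followed through the bone marrow of mice in droplet-based transcriptomes of single cells. They were taken as a named list of symbols, and all 9 were found among the 27998 features measured. The marrow came from chimeric mice, with 2 libraries labelled Idh1-R132H and 2 labelled Idh1-WT, and each library held the cells of 1 mouse. In the Idh1-R132H group, 5 days of tamoxifen induced an EYFP reporter and a heterozygous Idh1 allele with the R132H change, which gives this cytosolic isocitrate dehydrogenase the ability to make 2-hydroxyglutarate. The Idh1-WT group is labelled as wild type at this gene, and its cells were sorted for EYFP in the same way. The donor marrow was sorted 2 weeks later for EYFP-positive cells without lineage markers, and these were given to irradiated mice that got no supporting marrow, and the marrow, described as fully chimeric, was collected after 16 more weeks. Each library combined 3 sorts of 4000 EYFP-positive cells from a mouse. One took all CD45.1-positive blood cells, another took LK progenitors, which carry cKit but no lineage markers, and the last took LSK cells, which also carry Sca1, so the make-up of a library was set largely by the sort. The labels do not name the Cre driver, the age of the mice or the donors of each recipient, and p-values therefore reach no further than the spread between these libraries. A 3′ count of Idh1 does not tell the R132H allele from the normal one, so the genotype labels were not checked in this way.

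Megakaryocytes are the large marrow cells that shed platelets, and they arise from stem cells through progenitors that switch on genes for platelet granules, adhesion receptors and signalling. Granule chemokines and von Willebrand factor are stored in alpha granules and released when platelets are activated, while the glycoprotein Ib-IX-V complex binds von Willebrand factor and integrin αIIbβ3 binds fibrinogen. Some blood stem cells already carry transcripts of this program, of which Vwf is the best known.

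Among the 16169 cells analysed, 78 clusters were found and the cells were sorted into 18 named groups by marker genes other than the 9 described. Megakaryocyte progenitor-like cells numbered 29 and 65 in Idh1-R132H 1 and 2, and 37 and 45 in Idh1-WT 1 and 2. A group called intermediate here joined 3 clusters whose megakaryocyte marker score lay between that of this group and that of the other progenitors. It held 166 and 157 cells in Idh1-R132H and 217 and 159 in Idh1-WT. Stem cell-like cells numbered 107 and 117 in Idh1-R132H, and 83 and 229 in Idh1-WT. A larger group of mixed stem and multipotent progenitor-like cells held 1240 and 1353 cells in Idh1-R132H and 1236 and 886 in Idh1-WT. Of 16 megakaryocyte markers, 11 averaged at least 10 CPM (UMIs of the gene per 1000000 UMIs of the same cells) in megakaryocyte progenitor-like cells, while Gp6, Tubb1 and G6b were at 0. Over all cells analysed Gp6 and Tubb1 had 0 UMIs and G6b had 2, so their absence is not particular to this group. The summed level of the 16 markers was 1063 and 826 CPM in Idh1-R132H and 1162 and 886 CPM in Idh1-WT. The 7 stem cell markers summed to 85.8 and 65.7 CPM in Idh1-R132H and 25.5 and 56.7 CPM in Idh1-WT in these cells, but to 619 and 674 CPM and to 572 and 691 CPM in stem cell-like cells of the same libraries.

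The libraries held between 40364701 and 56353466 UMIs, and the median cell had between 7180.5 and 8707 UMIs. Idh1-R132H 1 and Idh1-WT 1 shared 344 cell barcodes, whereas other pairs of libraries shared between 13 and 32. In 326 of the 344 the Idh1-WT 1 copy had under 10% of the UMIs of the Idh1-R132H 1 copy, and 303 of the Idh1-WT 1 copies fell in unnamed cells. Of the megakaryocyte progenitor-like cells 1 in Idh1-R132H 1 and 0 in Idh1-WT 1 had a shared barcode, and 1 intermediate cell in each of the same libraries did. Cells with a Xist UMI and no Y-linked UMI made up 51.7% and 35.4% of megakaryocyte progenitor-like cells in Idh1-R132H, against 73.0% and 57.8% in Idh1-WT. They made up 47.6% and 38.2% of intermediate cells in Idh1-R132H, against 68.2% and 40.9% in Idh1-WT. The part of donor sex in the results was not tested beyond the values of Xist-carrying cells given below.

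The genes lie on 6 chromosomes of GRCm38, with Pf4 and Ppbp as neighbours on chromosome 5. Pf4 (platelet factor 4, an alpha-granule chemokine) spans chr5:90772435-90773383 and Ppbp (pro-platelet basic protein, another granule chemokine) spans chr5:90768518-90770063, both on the plus strand. Gp9 spans chr6:87778072-87779768 and Vwf chr6:125546774-125686679, both on the plus strand, and Sdpr lies at chr1:51289126-51302960 on the same strand. On the minus strand are Itga2b at chr11:102453297-102470122, Plek at chr11:16971206-17052381, Gp1bb at chr16:18620317-18622403 and Fli1 at chr9:32422204-32542861. Fli1 overlaps several annotated genes, among them the antisense Gm27201, and Plek overlaps Cnrip1 on the opposite strand over 796 bases. Spans are from GENCODE vM21. The 250 bases before the start of Pf4 and Ppbp are shown because these neighbours had the most alike levels of all member pairs, and those before Gp9 because they hold all 3 motifs searched. The sequences are from RefSeq on GRCm38.p6, and capitals mark the motifs.
Pf4, chr5:90772185-90772434, + strand: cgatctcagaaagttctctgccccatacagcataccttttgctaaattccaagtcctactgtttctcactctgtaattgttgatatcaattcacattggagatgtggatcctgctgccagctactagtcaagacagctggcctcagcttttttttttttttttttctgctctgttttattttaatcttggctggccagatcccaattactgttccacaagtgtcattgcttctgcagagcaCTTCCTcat
Ppbp, chr5:90768268-90768517, + strand: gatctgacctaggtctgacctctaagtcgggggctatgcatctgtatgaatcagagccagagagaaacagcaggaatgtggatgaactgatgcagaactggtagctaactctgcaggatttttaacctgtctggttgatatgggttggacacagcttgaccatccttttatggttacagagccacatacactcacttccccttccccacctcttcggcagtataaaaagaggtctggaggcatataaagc
Gp9, chr6:87777820-87778069, + strand: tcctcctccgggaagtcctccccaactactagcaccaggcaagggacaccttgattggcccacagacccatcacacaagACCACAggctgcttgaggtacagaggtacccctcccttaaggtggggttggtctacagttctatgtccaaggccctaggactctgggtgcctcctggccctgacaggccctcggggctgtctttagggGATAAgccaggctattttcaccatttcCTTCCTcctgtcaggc
The GATA family motif searched was GATAA, which reads TTATC when written along the opposite strand. The motif of the ETS family, to which Fli1 itself belongs, was AGGAAG, and along the opposite strand this appears as CTTCCT. The RUNX motif searched was TGTGGT, and its form along the opposite strand is ACCACA. Both strands were read, and the matches in the windows shown do not overlap. Of 32851 RefSeq promoters of the same length, 22.6% held the first, 29.5% the second, 14.1% the third and 1.08% all 3. The Pf4 window held 1 ETS match, from 9 to 4 bases before the start, and the Ppbp window held none of the 3 motifs. The Gp9 window held an ETS match 16 to 11 bases, a GATA match 43 to 39 bases and a RUNX match 171 to 166 bases before the start. Of the other windows, Itga2b held 2 ETS matches, Plek held 1 GATA match, and Gp1bb and Sdpr held none. In all, 7 of the 9 genes had a promoter entry, and Vwf and Fli1 are named only. Matches are letters in a window and not measured sites.

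All 9 genes had their highest mean level in megakaryocyte progenitor-like cells among the 18 groups, and for 7 of them the lowest library of that group lay above the highest library of the next group. For Ppbp and Vwf few cells carried much of the count, as given below. CPM from 3′ counts is not set per length, so levels are compared across cells within a gene and not between genes. Neither cells nor groups are replicates, and the order of groups carries no test.

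**Figure D1:**
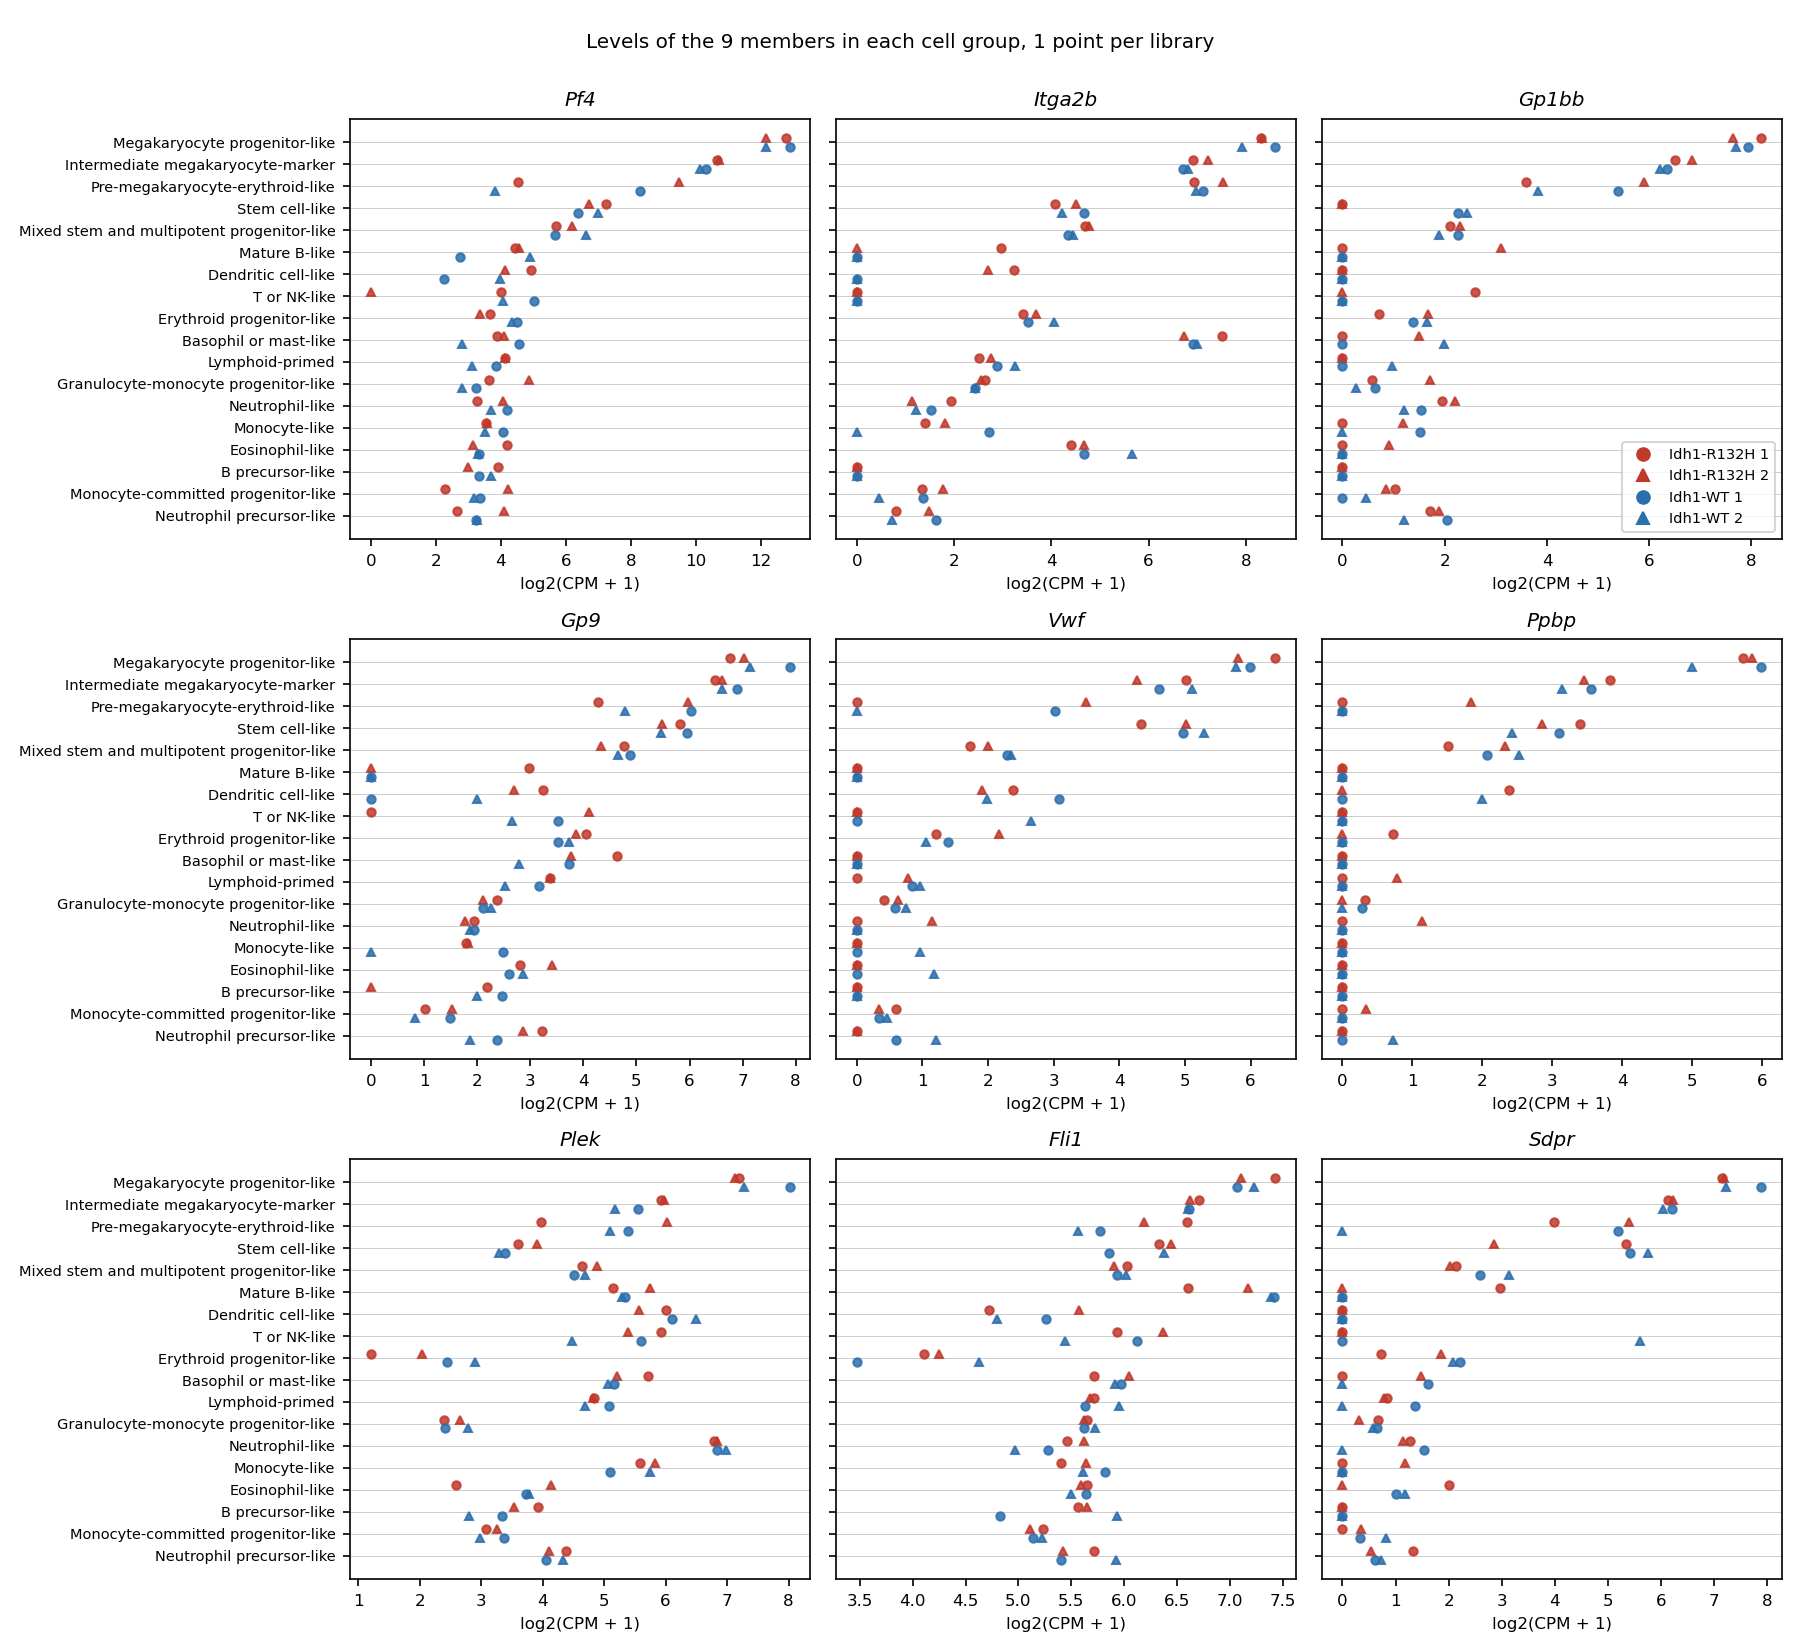
Levels of the 9 genes as log2(CPM + 1) on the horizontal axis, whose range differs by gene, in each cell group (vertical axis), with 1 point per library and Idh1-R132H drawn above Idh1-WT. Every gene peaks in megakaryocyte progenitor-like cells; Fli1 and Plek are present across most groups, while Ppbp and Vwf are at or near 0 in most.

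Of the granule proteins, Pf4 reached 7032 and 4621 CPM in megakaryocyte progenitor-like cells of Idh1-R132H 1 and 2, and 7570 and 4578 CPM in those of Idh1-WT 1 and 2. Each group of mice thus had 1 high and 1 low library, and the genotypes overlapped. The mean over 4 libraries, 5950 CPM, was 4.2 times that of intermediate cells, the next group, at 1416 CPM. Pre-megakaryocyte-erythroid-like cells followed, with 22.1 and 720 CPM in Idh1-R132H and 312 and 13.2 CPM in Idh1-WT, from as few as 14 cells per library, so their place in the order is unsettled. Stem cell-like cells averaged 115 CPM, the mixed stem and multipotent group 67.7 CPM and every other named group at most 19.4 CPM. In barcodes with at most 50 UMIs, taken as free RNA, Pf4 stood at 139 and 196 CPM in Idh1-R132H and 195 and 151 CPM in Idh1-WT, and an estimated 152 to 165 UMIs per cell came from this source.

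Ppbp had 52.2 and 56.8 CPM in megakaryocyte progenitor-like cells of Idh1-R132H and 62.4 and 30.9 CPM in those of Idh1-WT, from 12 to 32 UMIs per library. Its mean was 4.85 times that of intermediate cells, and 6 of the 18 groups had no Ppbp UMI at all. Vwf, the adhesive protein that tethers platelets, had 82.0 and 55.1 CPM in Idh1-R132H and 62.4 and 54.1 CPM in Idh1-WT megakaryocyte progenitor-like cells, again with overlapping genotypes. These Vwf levels came from 21 to 31 UMIs per library. For Vwf the next group was the stem cell-like one, at 29.7 CPM on average, followed by intermediate cells at 26.6 CPM. These did not differ beyond the spread of their libraries, from 19.0 to 38.1 CPM and from 18.2 to 33.5 CPM. In every other named group Vwf averaged at most 4.35 CPM, the mixed group being at 3.32 CPM.

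Among the surface receptors, Itga2b (integrin αIIb, also called CD41) had 317 and 320 CPM in megakaryocyte progenitor-like cells of Idh1-R132H, against 388 and 242 CPM in Idh1-WT. Its mean was 2.23 times that of pre-megakaryocyte-erythroid-like cells. Itga2b was also high in basophil or mast-like cells, at 133 CPM, and in intermediate cells, at 121 CPM, and these last 3 groups overlapped. Gp1bb (glycoprotein Ib beta) had 291 and 197 CPM in Idh1-R132H and 244 and 206 CPM in Idh1-WT, 2.63 times the mean of intermediate cells. Beyond pre-megakaryocyte-erythroid-like cells, at 31.0 CPM, no named group averaged over 3.44 CPM of Gp1bb. Gp1bb overlaps Sept5 on the same strand over 1902 bases, so its counts are uncertain. Gp9 (glycoprotein IX) had 108 and 130 CPM in Idh1-R132H and 235 and 139 CPM in Idh1-WT, and its intermediate cells, with 88.5 to 118 CPM, overlapped with these.

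Plek and Fli1 were the least lineage-restricted members. Plek (pleckstrin, a protein kinase C substrate of platelets and leukocytes) had 145 and 139 CPM in megakaryocyte progenitor-like cells of Idh1-R132H, against 258 and 155 CPM in those of Idh1-WT, and averaged 115 CPM in neutrophil-like and 66.6 CPM in dendritic cell-like cells. Fli1, an ETS factor needed for megakaryocyte maturation, had 172 and 137 CPM in Idh1-R132H and 133 and 149 CPM in Idh1-WT. Mature B-like cells overlapped with this, at 96.1 to 170 CPM, and only erythroid progenitor-like cells, at 17.0 CPM on average, stood below every other group without overlap. Sdpr (named Cavin2 in the annotation, a caveolar coat protein first purified from human platelets) had 142 and 144 CPM in megakaryocyte progenitor-like cells of Idh1-R132H and 235 and 149 CPM in those of Idh1-WT. Its mean was 70.1 CPM in intermediate, 35.1 CPM in stem cell-like and 4.81 CPM in mixed stem and multipotent cells. An antisense gene, 9330175M20Rik, covers all of Sdpr, and whether counting used strand is not given in the sources used here.

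Across 68 sums (17 groups of 4 libraries), Pf4 and Ppbp had the most alike pattern of any member pair, with a Pearson r of 0.925 on log2(CPM + 1). Plek and Gp9 were the least alike, at 0.188. Libraries and depth are shared between these points, so r is a description. Outside the 9 genes and among 8672 candidates, Treml1, a receptor of platelet alpha granules, was most like Pf4 (0.925) and Gp1bb (0.884). Rbpms2 was most like Ppbp (0.916), F2r (the thrombin receptor PAR1) most like Gp9 (0.863), and Gm10419 most like both Vwf (0.905) and Sdpr (0.899). For Itga2b the first was 4930519L02Rik (0.857) with the transcription factor gene Gata2 next (0.851). Plek (Ncoa3, 0.763) and Fli1 (Atp2a3, 0.665) had no gene as close. Treml1 is 1 of the 16 markers that named the megakaryocyte progenitor-like group, so its likeness is in part built in. Gata2 is likewise a marker of the pre-megakaryocyte-erythroid-like group.

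Idh1-R132H was set against Idh1-WT within each cell group on summed UMIs with edgeR's quasi-likelihood test, adjusted by Benjamini-Hochberg over all genes tested, and a gene was called at an adjusted p below 0.05. Fold changes are Idh1-R132H over Idh1-WT. The test gives no SE, so each SE here is the absolute log2 fold change divided by the square root of its F value. In megakaryocyte progenitor-like cells none of the 9 genes was called, where 1 of 4082 genes was (0.0245%) and 216 had an unadjusted p below 0.05. DESeq2 called no member either. Pf4 differed by −0.06 on the log2 scale (SE 0.43, adjusted p = 1.00 with edgeR), and each genotype had 1 high and 1 low library. Itga2b (0.04), Gp1bb (0.06), Vwf (0.17), Ppbp (0.28) and Fli1 (0.09) also lay within 1 SE of 0. Gp9 at −0.58 (SE 0.22, adjusted p = 0.88 with edgeR), Plek at −0.52 (SE 0.21, adjusted p = 0.88) and Sdpr at −0.40 (SE 0.21, adjusted p = 0.91) had the largest differences. For Gp9, Plek and Sdpr both Idh1-R132H libraries lay below both Idh1-WT libraries, as the genotypes also did not overlap in 32.9% of all 4082 genes. Idh1-WT 1 stood highest for these 3 members, and without Idh1-WT 1 the values were −0.17, −0.11 and −0.04.

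**Figure D2:**
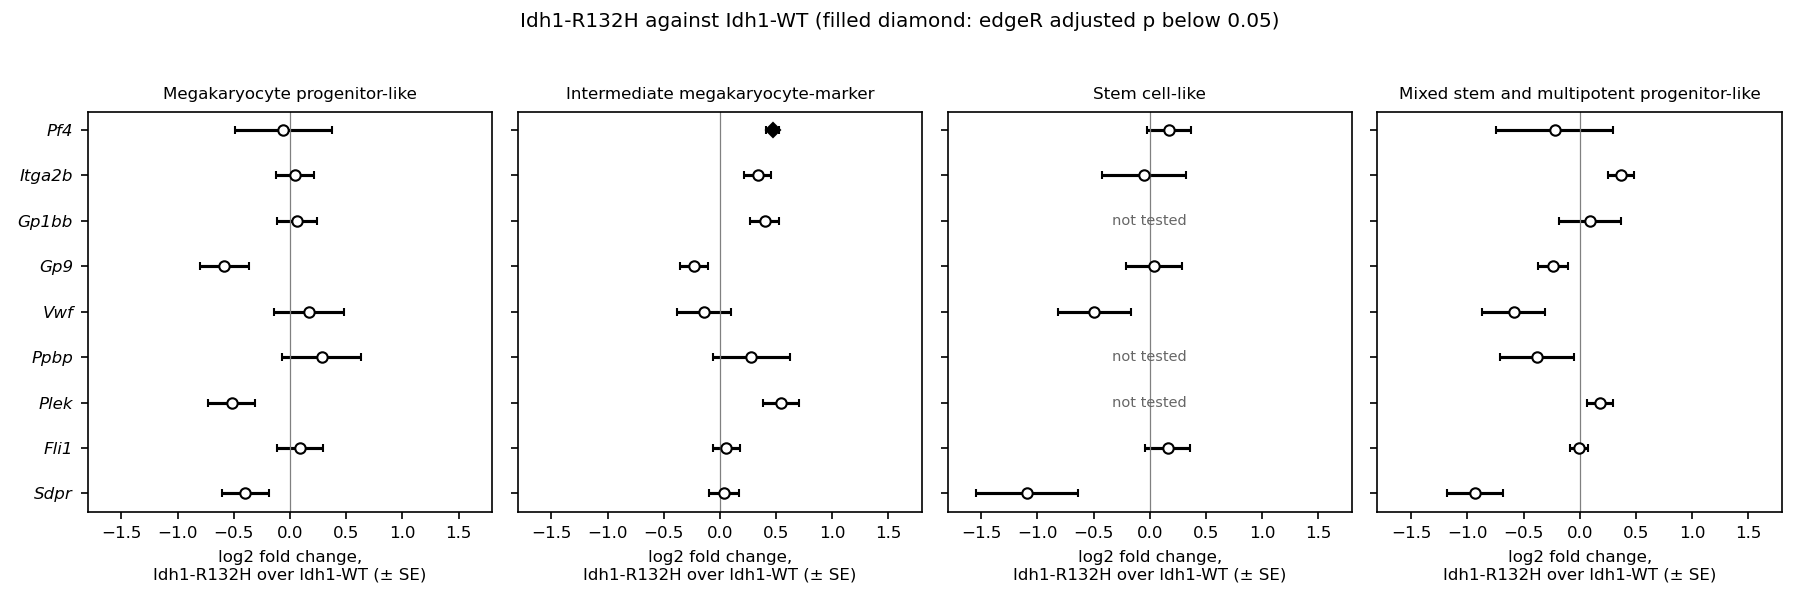
Log2 fold change of each gene, Idh1-R132H over Idh1-WT, with bars of 1 SE derived from the F value, in megakaryocyte progenitor-like, intermediate, stem cell-like and mixed cells. A filled diamond marks an adjusted p below 0.05 with edgeR. The only filled diamond is Pf4 in intermediate cells, at 0.47.

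The number of megakaryocyte progenitor-like cells did not separate the genotypes. They made up 0.756% and 1.49% of the cells of Idh1-R132H 1 and 2 (exact binomial 95% intervals 0.507 to 1.08% and 1.15 to 1.90%), and 0.822% and 1.30% of those of Idh1-WT 1 and 2 (0.579 to 1.13% and 0.946 to 1.73%). The exact two-sided permutation test gave p = 1, where the smallest p that 2 against 2 libraries allows is 0.333. Intermediate cells made up 4.33% and 3.60% in Idh1-R132H, against 4.82% and 4.58% in Idh1-WT (exact permutation p = 0.333). Stem cell-like cells made up 2.79% and 2.69% in Idh1-R132H, against 1.84% and 6.59% in Idh1-WT (exact permutation p = 1). These intervals cover counting error only.

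Pf4 rose in intermediate cells of Idh1-R132H, the 1 member called in any cell group. It had 1607 and 1679 CPM in Idh1-R132H, against 1263 and 1114 CPM in Idh1-WT, with no overlap between the groups. The log2 fold change was 0.47 (SE 0.06, adjusted p = 1.56e-06 with edgeR, and 0.00823 with DESeq2), in a comparison where 17 of 8549 genes were called (0.199%), 14 of them higher in Idh1-R132H (0.164%). Plek had 59.6 and 61.6 CPM in Idh1-R132H and 46.1 and 35.3 CPM in Idh1-WT. Gp1bb had 90.3 and 113 CPM in Idh1-R132H and 80.0 and 73.6 CPM in Idh1-WT. Itga2b had 119 and 149 CPM in Idh1-R132H and 103 and 111 CPM in Idh1-WT. These 3 genes were not called, with log2 fold changes of 0.54, 0.40 and 0.33 and adjusted p of 0.195, 0.313 and 0.440 with edgeR. With Gp9 and Fli1, 6 of the 9 members did not overlap between genotypes in these cells, where 36.4% of all 8549 genes did not. Gp9 was lower in Idh1-R132H, with 88.50 and 96.24 CPM against 117.82 and 96.33 CPM in Idh1-WT. Fli1 had 103.55 and 97.42 CPM in Idh1-R132H and 97.11 and 96.33 CPM in Idh1-WT. For Gp9 and Fli1 the nearest libraries of the genotypes were thus almost level. The other 5 members, Gp9 (−0.23), Vwf (−0.14), Ppbp (0.28), Fli1 (0.06) and Sdpr (0.04), had adjusted p of at least 0.748. The 16 megakaryocyte markers summed to 554 and 494 CPM in intermediate cells of Idh1-R132H and to 450 and 523 CPM in those of Idh1-WT, and the 7 stem cell markers to 192 and 157 CPM and to 149 and 195 CPM, and both lists overlapped between genotypes. Their part in the Pf4 difference was not tested. The megakaryocyte markers summed as high in stem cell-like cells, to 486 and 508 CPM in Idh1-R132H and to 564 and 571 CPM in Idh1-WT, of which Gng11 alone gave 244 and 249 CPM and 309 and 318 CPM, and 5 of the 16 averaged at least 10 CPM there against 9 in intermediate cells.

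The intermediate group was not uniform. Its cluster 22, led by S-phase genes such as Tk1 and Tyms, had 2601 and 2239 CPM of Pf4 in Idh1-R132H and 1484 and 1784 CPM in Idh1-WT, a log2 fold change of 0.58 (SE 0.07, adjusted p = 3.43e-04 with edgeR, where 2 of 5691 genes, 0.0351%, were called). Cluster 16, led by mitotic genes such as Ube2c and Ccnb1, had 1681 and 1306 CPM in Idh1-R132H and 1316 and 1390 CPM in Idh1-WT, which overlap (0.18, SE 0.09, adjusted p = 0.763 with edgeR, 0.0874% of genes called). Cluster 10, led by Mycn and Nrgn and scoring highest for stem cell markers, had 459 and 1226 CPM in Idh1-R132H and 933 and 390 CPM in Idh1-WT (0.34, SE 0.86, adjusted p = 0.961, 0 of 5496 genes called and 352 at an unadjusted p below 0.05). Cluster 10 made up 39.2% and 31.2% of the group in Idh1-R132H, against 35.5% and 50.3% in Idh1-WT. The fits by cluster were chosen after the data were seen, and whether the genotype difference of Pf4 itself differs between clusters was not tested.

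**Figure D3:**
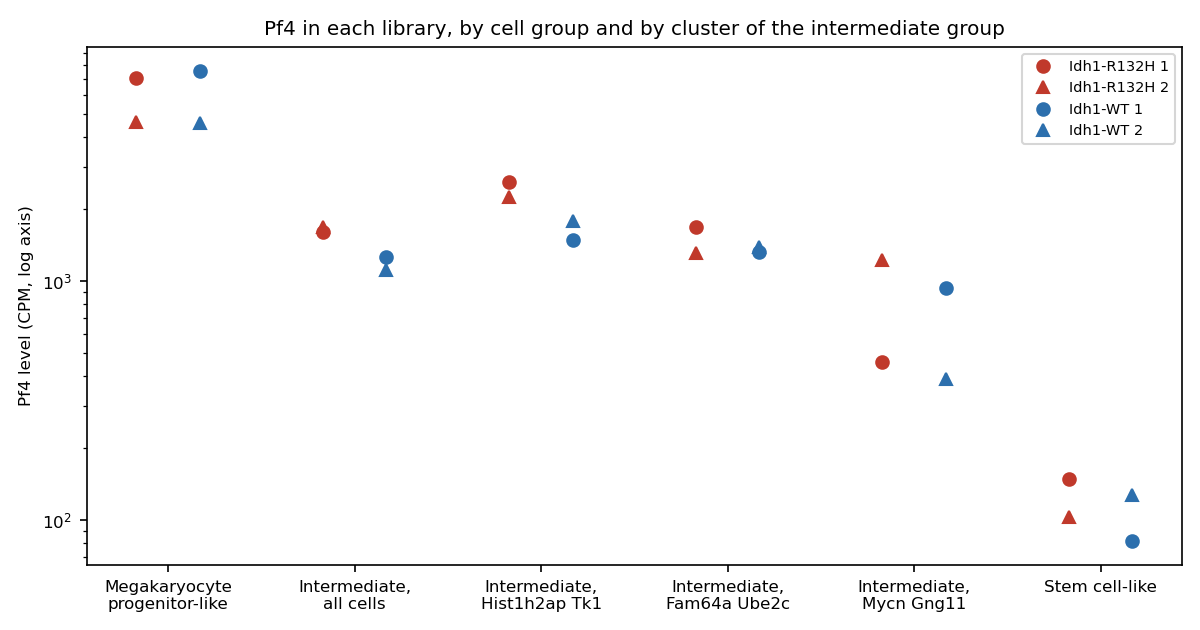
Level of Pf4 (CPM, logarithmic axis) in each library, with Idh1-R132H left of Idh1-WT, for megakaryocyte progenitor-like cells, intermediate cells, their clusters 22 (Hist1h2ap Tk1), 16 (Fam64a Ube2c) and 10 (Mycn Gng11), and stem cell-like cells. The genotypes are apart in intermediate cells as a whole and in cluster 22, and overlap elsewhere.

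A few cells carried much of the Pf4. The 5 richest intermediate cells of each library held 48.6% and 52.2% of its Pf4 UMIs in Idh1-R132H, against 45.6% and 55.9% in Idh1-WT, and the median intermediate cell held 1 Pf4 UMI in every library. Without those 5 cells, chosen after their values were known, Pf4 stood at 863 and 852 CPM in Idh1-R132H and at 713 and 516 CPM in Idh1-WT. When every cell was thinned to 3000 UMIs, 39.5% and 43.2% of intermediate cells had a Pf4 UMI in Idh1-R132H, against 42.6% and 36.7% in Idh1-WT, which overlap (exact permutation p = 0.667). In Xist-carrying intermediate cells alone Pf4 had 2235 and 1698 CPM in Idh1-R132H and 1504 and 903 CPM in Idh1-WT, and the call was lost (log2 fold change 0.68, adjusted p = 0.839 with edgeR). In the remaining intermediate cells it had 988 and 1667 CPM in Idh1-R132H and 696 and 1262 CPM in Idh1-WT. In megakaryocyte progenitor-like cells the 5 richest cells held 70.6% and 45.2% of the Pf4 UMIs in Idh1-R132H and 46.8% and 49.7% in Idh1-WT. Without those cells Pf4 stood there at 3074 and 2953 CPM in Idh1-R132H and at 5270 and 2802 CPM in Idh1-WT. The genotypes still overlapped, but the Idh1-R132H libraries were then nearly level.

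The difference of the Idh1-R132H effect between intermediate and megakaryocyte progenitor-like cells was tested with a genotype by group term, the library being a block, a test added after the data were seen. Of 7966 genes edgeR called 0 (0.0%), and so did DESeq2, while 379 had an unadjusted p below 0.05 with edgeR. For Pf4 the difference was 0.54 (SE 0.40, adjusted p = 0.995 with edgeR), so the call in one group and not in the other does not show that the effects differ. Without Idh1-R132H 1 the difference for Pf4 was 0.85 and was called (adjusted p = 2.90e-24). For Plek it was 1.13 (SE 0.25, unadjusted p = 5.14e-05, adjusted p = 0.180), with levels higher in Idh1-R132H in intermediate cells and lower in megakaryocyte progenitor-like cells. In the latter Plek had 145 and 139 CPM in Idh1-R132H and 258 and 155 CPM in Idh1-WT. There Idh1-WT 1 alone stood far above the other libraries. Plek was called with the shared barcodes left out (1.2, adjusted p = 0.0270), with at most 5% mitochondrial UMIs (adjusted p = 0.00737), with the members kept in the clustering (adjusted p = 0.0170) and without Idh1-WT 2 (adjusted p = 0.0246).

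In stem cell-like cells none of the 6 members that passed the filter on low counts was called with edgeR or with DESeq2, where 2 of 5940 genes were (0.0337%) and 318 had an unadjusted p below 0.05. Sdpr had 39.7 and 6.25 CPM in Idh1-R132H, from 25 and 4 UMIs, and 41.6 and 52.7 CPM in Idh1-WT, from 22 and 72 UMIs. The groups did not overlap, as in 34.7% of all genes tested there, and Idh1-R132H 1 lay close to Idh1-WT 1 and the low value was that of Idh1-R132H 2 alone. The log2 fold change was −1.10 (SE 0.45, adjusted p = 0.880 with edgeR). Without Idh1-R132H 1 it was −2.94 (adjusted p = 2.81e-04), without Idh1-R132H 2 −0.32 (adjusted p = 0.998), without Idh1-WT 1 −1.21 (adjusted p = 0.0419) and without Idh1-WT 2 −0.84 (adjusted p = 0.848). The value therefore turned mostly on which Idh1-R132H library was kept, and the call also on which Idh1-WT library was kept.

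Vwf in stem cell-like cells had 19.0 and 31.3 CPM in Idh1-R132H and 30.3 and 38.1 CPM in Idh1-WT, and the genotypes overlapped (−0.49, SE 0.32, adjusted p = 0.905 with edgeR). Pf4 (0.17), Itga2b (−0.05), Gp9 (0.04) and Fli1 (0.16) lay within 1 SE of 0. Gp1bb, Ppbp and Plek were not tested there. Gp1bb had 0 UMIs in both Idh1-R132H libraries, a floor of 3 counts being 4.76 and 4.69 CPM, and 2 and 6 UMIs (3.79 and 4.39 CPM) in Idh1-WT, so no difference was detectable at this depth. Plek had 11.1 and 14.1 CPM in Idh1-R132H and 9.46 and 8.78 CPM in Idh1-WT from 5 to 12 UMIs per library. Ppbp had 9.52 and 6.25 CPM in Idh1-R132H and 7.57 and 4.39 CPM in Idh1-WT from 4 to 6 UMIs. The difference of effect between megakaryocyte progenitor-like and stem cell-like cells was called for 0 of 6225 genes (0.0%) with edgeR and 0 with DESeq2, with 299 at an unadjusted p below 0.05.

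**Figure D4:**
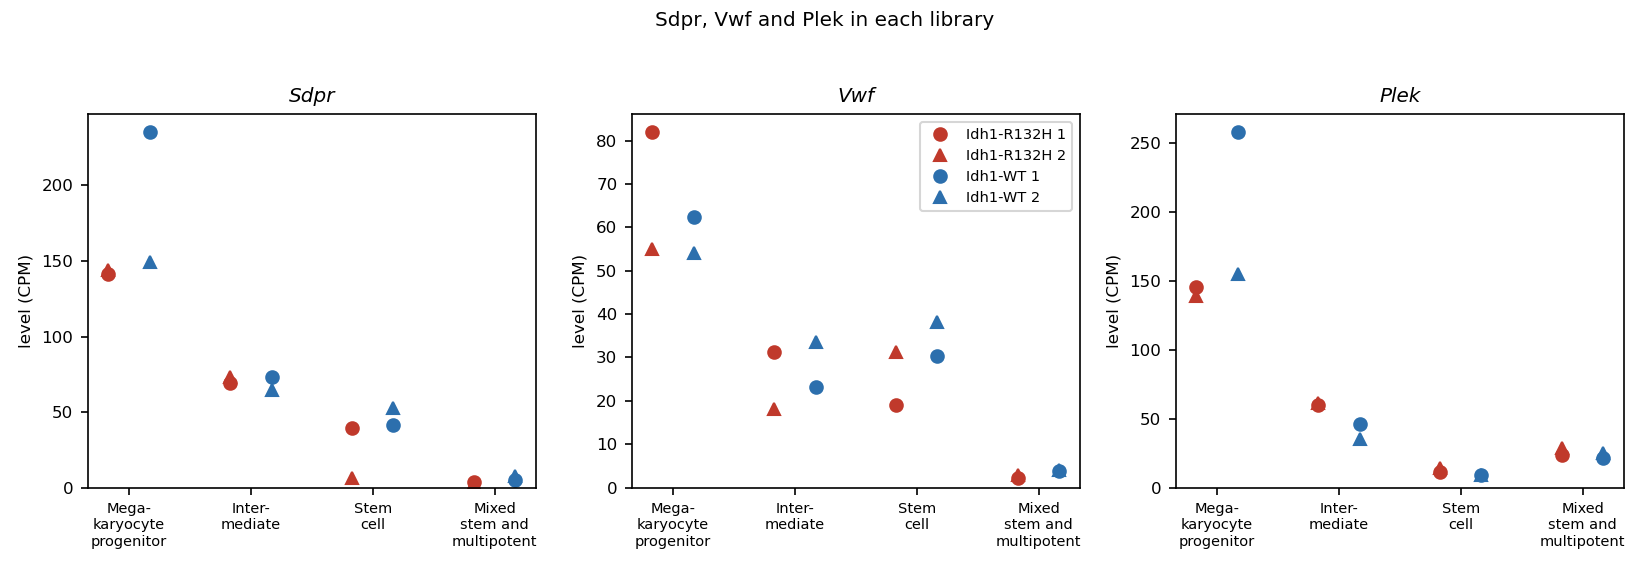
Levels (CPM, linear axes from 0) of Sdpr, Vwf and Plek in each library, Idh1-R132H left of Idh1-WT, in 4 cell groups. Sdpr is low in stem cell-like cells of Idh1-R132H 2 alone, at 6.25 CPM, and Plek is high in megakaryocyte progenitor-like cells of Idh1-WT 1, at 258 CPM.

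The share of stem cell-like cells with any transcript of the program depended on the depth at which it was read. After thinning to 3000 UMIs, 60.0% and 57.9% of stem cell-like cells had a UMI of any of the 9 genes in Idh1-R132H, against 59.3% and 63.4% in Idh1-WT, a difference of −2.40 percentage points (exact permutation p = 0.667), and the genotypes overlapped. At 2000 UMIs the shares were 42.1% and 31.6% in Idh1-R132H and 43.4% and 52.4% in Idh1-WT, which did not overlap (−11.0 percentage points, exact permutation p = 0.333, the smallest it can give). At their full depth the shares were 75.7% and 75.2% in Idh1-R132H and 80.7% and 80.8% in Idh1-WT, again without overlap. The median cell there had 5669 and 5422 UMIs in Idh1-R132H and 6175 and 5753 UMIs in Idh1-WT. The part of depth in the genotype difference of the full-depth shares was not tested. In neutrophil precursor-like cells, which should lack most of the program, the thinned shares were 24.1% and 20.2% in Idh1-R132H and at most 21.9% in Idh1-WT, with medians of 6018 to 6685.5 UMIs. Fli1 and Plek, the least lineage-restricted members, had 331 and 121 UMIs in these cells over all libraries. Every other member had at most 72 UMIs, so this share is mainly not one of platelet-restricted genes. For Vwf the thinned share of stem cell-like cells was 6.67% and 7.89% in Idh1-R132H, against 8.64% and 11% in Idh1-WT. The genotypes did not overlap, but the exact permutation test gave p = 0.333, the smallest it can give. Vwf was in 0% and 0% of neutrophil precursor-like cells in Idh1-R132H and in 0% and 1.18% in Idh1-WT. For Pf4 the thinned shares of stem cell-like cells were 27.6% and 21.1% in Idh1-R132H and 21.0% and 24.2% in Idh1-WT, against 1.90% to 4.44% in neutrophil precursor-like cells. Thinning left out 2 and 3 stem cell-like cells in Idh1-R132H and 2 and 2 in Idh1-WT.

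**Figure D5:**
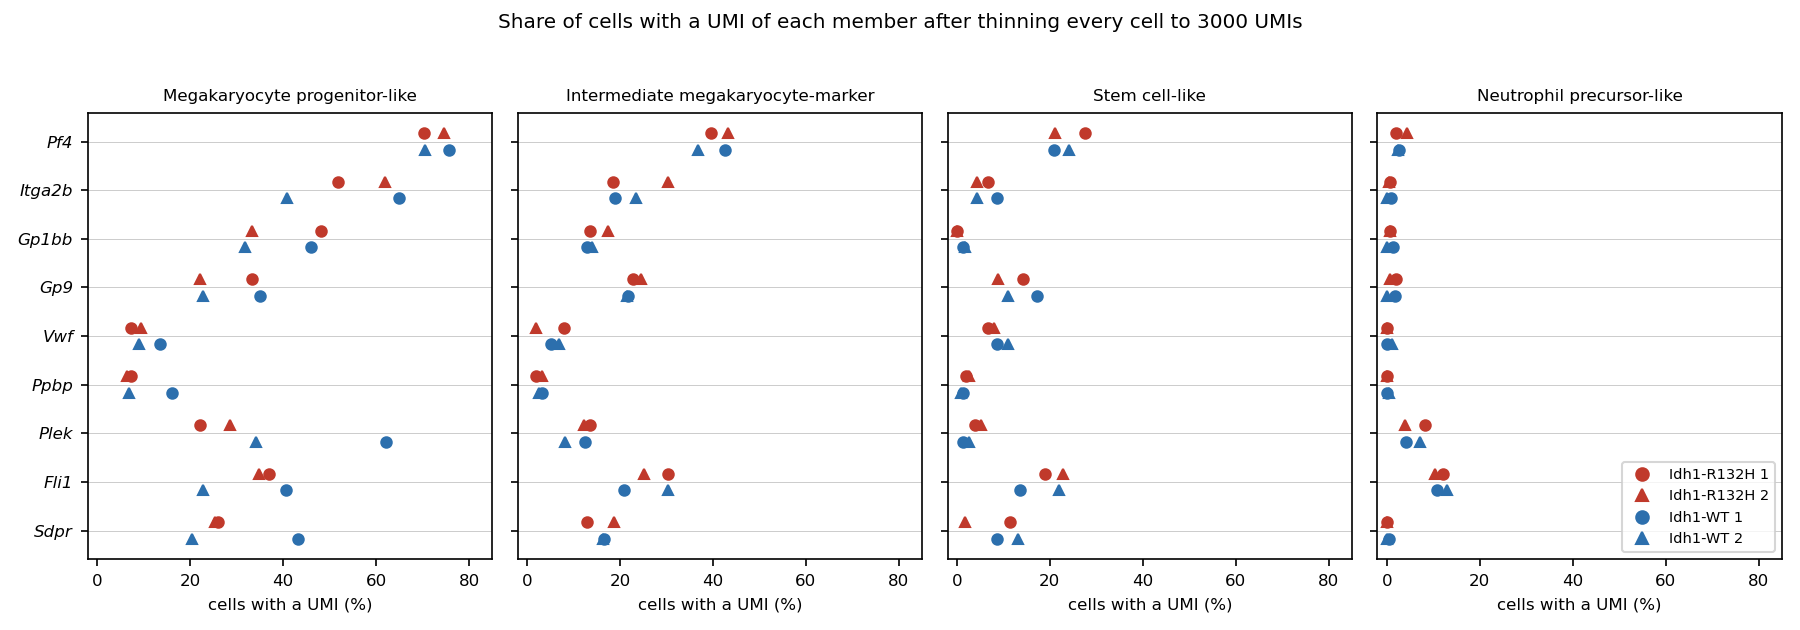
Share of cells with at least 1 UMI of each gene (percent, horizontal axis) after thinning every cell to 3000 UMIs, in 4 cell groups, with 1 point per library and Idh1-R132H above Idh1-WT. Pf4 lies above 70% in megakaryocyte progenitor-like cells and below 5% in neutrophil precursor-like cells; Plek in megakaryocyte progenitor-like cells is highest in Idh1-WT 1, at 62.2%.

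In the mixed stem and multipotent progenitor-like cells none of the 9 genes was called with edgeR or DESeq2, where 25 of 11676 genes were with edgeR (0.214%). Sdpr had 3.40 and 3.07 CPM in Idh1-R132H and 5.02 and 7.75 CPM in Idh1-WT, from 36 to 63 UMIs per library. The groups did not overlap, as in 34.8% of all genes tested there, and the log2 fold change was −0.93 (SE 0.25, adjusted p = 0.156 with edgeR). The call appeared with no filter on low counts (−0.93, adjusted p = 0.0354) and with a UMI minimum of 300 (−1.42, adjusted p = 0.00206). Itga2b had 25.0 and 26.2 CPM in Idh1-R132H and 19.2 and 20.7 CPM in Idh1-WT (0.37, SE 0.11, adjusted p = 0.368 with edgeR). Vwf had 2.30 and 2.98 CPM in Idh1-R132H and 3.90 and 4.08 CPM in Idh1-WT (−0.59, SE 0.28, adjusted p = 0.765 with edgeR). With stem, mixed and intermediate cells summed, a sum chosen after the data were seen, Sdpr differed by −0.70 (SE 0.13, adjusted p = 0.0742 with edgeR, where 0.0585% of 11976 genes were called). Without Idh1-WT 1 this became −0.85 (adjusted p = 0.0174) and Vwf −1.03 (adjusted p = 0.0205).

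In the other 13 groups with at least 20 cells in every library no member was called either. The share of all genes called was 0.0% in eosinophil-like and T or NK-like cells, 0.0289% in B precursor-like, 0.0385% in lymphoid-primed, 0.0616% in erythroid progenitor-like, 0.0695% in basophil or mast-like and 0.208% in mature B-like cells. It was 0.295% in neutrophil precursor-like, 0.448% in neutrophil-like, 0.424% in monocyte-committed progenitor-like, 0.56% in monocyte-like and 0.8% in dendritic cell-like cells. In granulocyte-monocyte progenitor-like cells, where 0.327% of genes were called, Pf4 had 11.4 and 28.4 CPM in Idh1-R132H, against 8.40 and 5.91 CPM in Idh1-WT. Gp1bb had 6 and 29 UMIs there in Idh1-R132H and 8 and 2 UMIs in Idh1-WT. Both were called without Idh1-R132H 1 (1.99, adjusted p = 3.28e-35, and 2.5, adjusted p = 0.00372 with edgeR) and Idh1-R132H 2 was the 1 high library.

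Beyond the 9, a list of 74 other genes of the lineage was read in the same fits. None of 16 transcription factor genes, 20 receptor and adhesion genes, 14 granule and coagulation genes, 20 signalling and platelet formation genes and 4 caveolar coat relatives of Sdpr was called in megakaryocyte progenitor-like or stem cell-like cells. Of those tested in megakaryocyte progenitor-like cells, 10 of 15 transcription factor genes were above 0, with a median log2 fold change of 0.12. The receptor genes there had 1 of 6 above 0 and a median of −0.26, the granule genes 3 of 7 and −0.08, and the signalling genes 5 of 12 and −0.05, while the median over all 4082 genes was −0.0026. In stem cell-like cells the medians of these 4 lists were 0.08, −0.01, −0.14 and 0.11, against 0.0021 over all 5940 genes. In intermediate cells they were −0.02, 0.18, 0.06 and 0.09, against 0.01 over all 8549 genes. Of the caveolar genes 1 was tested in megakaryocyte progenitor-like cells, at 0.65, and 3 in stem cell-like and in intermediate cells, with medians of 0.63 and −0.24. The 9 members themselves had medians of 0.04 in megakaryocyte progenitor-like cells, −0.01 over the 6 tested in stem cell-like cells and 0.28 in intermediate cells.

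Serpine2, which encodes the thrombin inhibitor protease nexin 1, was the 1 gene of the 74 called in intermediate cells, a group it had helped to name as a megakaryocyte marker. It had 44.6 and 49.9 CPM in Idh1-R132H and 21.1 and 27.5 CPM in Idh1-WT (log2 fold change 1.00, SE 0.19, adjusted p = 0.00687 with edgeR). The call was lost with DESeq2 (0.97, adjusted p = 1.00), in Xist-carrying cells alone (0.87, adjusted p = 0.302), with the members kept in the clustering (0.73, adjusted p = 0.0793), without Idh1-R132H 2 (0.90, adjusted p = 0.0620) and without Idh1-WT 1 (0.78, adjusted p = 0.171). The other 2 of the 74 genes called anywhere were in dendritic cell-like cells, where 29 of 3626 genes were called (0.8%). There the tetraspanin gene Cd63 had 122 and 203 CPM in Idh1-R132H and 22.5 and 50.5 CPM in Idh1-WT (2.17, adjusted p = 1.10e-04 with edgeR and 0.101 with DESeq2). The granule proteoglycan gene Srgn had 506 and 662 CPM in Idh1-R132H and 378 and 336 CPM in Idh1-WT (0.76, adjusted p = 0.00903 with edgeR and 0.900 with DESeq2). Both are expressed well beyond the platelet lineage, and both calls were lost when cells were grouped by their own markers.

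Of the 74, 3 of 41 tested genes had an unadjusted p below 0.05 in megakaryocyte progenitor-like cells, against 216 of all 4082, and 1 of 44 in stem cell-like cells, against 318 of all 5940. In intermediate cells it was 7 of 52, against 623 of all 8549, and in mixed cells 9 of 56, against 739 of all 11676. The 3 in megakaryocyte progenitor-like cells were Cd63 (0.34), the tetraspanin gene Cd9 (−0.24) and the glycoprotein V gene Gp5 (−0.46), with adjusted p of at least 0.881 with edgeR. Gp5, itself a marker that helped to name this group, had 149 and 114 CPM in Idh1-R132H and 201 and 152 CPM in Idh1-WT. The 1 in stem cell-like cells was the G protein gamma subunit gene Gng11, also a megakaryocyte marker here. Gng11 had 244 and 249 CPM in Idh1-R132H and 309 and 318 CPM in Idh1-WT (−0.34, SE 0.11, adjusted p = 0.776 with edgeR).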

How the data were processed

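The authors deposited raw UMI counts per gene and barcode from 10x Genomics 3′ v2 libraries, for which the submitters' processing notes name Cell Ranger 4.0.0, Seurat and the build GRCm38 (mm10). The authors' annotation and whether counting used strand are not given in the sources used here. A barcode was kept as a cell from 500 UMIs and 200 genes upward, unless over 10% of its UMIs were mitochondrial, which left 16280 cells. Scrublet called 111 doublets (0.682%), which were removed, leaving 16169 cells (3837 and 4357 in Idh1-R132H, 4501 and 3474 in Idh1-WT).

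Cells were clustered with scanpy 1.11.5 (2000 variable genes, 30 components, 15 neighbours, Leiden resolution 6) with the 9 genes left out, and clusters were named from marker lists that hold none of them. The resolution and the scores that bound the stem cell-like, megakaryocyte progenitor-like and intermediate groups were set after clusters were seen. Of the clusters, 7 stayed unnamed.

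Raw UMIs were summed per library and group and tested with edgeR 4.0.16 (quasi-likelihood, TMM scaling, filterByExpr) in R 4.3.3, with Benjamini-Hochberg adjustment over all genes tested. DESeq2 1.42.0 was an alternative. Groups with under 20 cells in any library were not tested. The scripts were tested on simulated data. Shares were compared by exact two-sided permutation, for which 2 against 2 libraries allow no p below 0.333. Counting error is all that the intervals and the floors of 3 counts cover. Thinning drew 3000 UMIs per cell. Promoters are RefSeq's on GRCm38.p6, and gene positions are from GENCODE vM21 on GRCm38. Named outside the 9 were the 3 genes most like each member, and genes of the wider list that were called or had the smallest p. The members and lists were chosen with earlier results of these data known.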

Additional observations from a re-analysis of the deposited data

How the results depend on the processing

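With 2 libraries a genotype and 29 to 65 megakaryocyte progenitor-like cells in each, only large differences could pass, and leaving out 1 library left an arm with a lone sample assumed to vary like the others. Of 478 values under alternatives for 27 results (each member tested in megakaryocyte progenitor-like, stem cell-like and intermediate cells, and Itga2b, Vwf and Sdpr in mixed cells), 420 kept direction and side of the threshold, 1 lost its call, 4 gained one and 53 turned in sign. Calls gained in granulocyte-monocyte progenitor-like cells, in summed groups and in the differences between groups stand beside those results and are not among the 4. For 7 results on wider-list genes 103 of 126 were kept, 16 lost their call and 7 turned. The cause was not tested. Genes called ranged from 0 (DESeq2) to 8 (shared barcodes left out) in megakaryocyte progenitor-like cells, 0 (Xist-carrying cells) to 17 (without Idh1-WT 1) in stem cell-like, 3 (DESeq2) to 49 (without Idh1-WT 1) in intermediate, and 2 (DESeq2) to 92 (without Idh1-R132H 1) in mixed cells. Pf4 in intermediate cells was 0.37 to 0.56 with 1 library left out, always called. Xist-carrying cells were too few (15 in Idh1-R132H 1) to test megakaryocyte progenitor-like cells, and the intermediate group did not exist with a UMI minimum of 300 or with each cell grouped by its own markers. Deviations of same-numbered libraries from their genotype means had correlations of −0.00836 in megakaryocyte progenitor-like and 0.0207 in stem cell-like cells. Sums over so few cells carry much counting error, so these values do not settle whether the replicate numbers pair the libraries. With the replicate block Pf4 in intermediate cells was 0.47 and called (adjusted p = 6.68e-05 with edgeR), Gp9 in stem cell-like cells was −0.039, and no member's call changed.

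In the log2 fold changes below Mk stands for megakaryocyte progenitor-like cells. A UMI minimum of 1000 gave in Mk cells Pf4 0.22, Fli1 −0.10 and Cd9 0.075, in intermediate cells Sdpr −0.030 and Ppbp −0.27, in stem cell-like cells Pf4 −0.17 and Fli1 −0.089, and a Mk share difference of −0.278 percentage points. A UMI minimum of 300 gave in Mk cells Sdpr 0.15, Pf4 0.25 and Cd9 0.26, in stem cell-like cells Gp9 −0.25, Itga2b 0.70 and Pf4 −0.12, and a share difference of −0.127. Xist-carrying cells alone gave in stem cell-like cells Vwf 0.17 and Gp9 −0.16, with thinned share differences of 3.46 for any member and 1.43 for Vwf, in intermediate cells Pf4 0.68 (no longer called) and Vwf 0.067, a Mk share difference of −0.148, and 0 wider-list calls in other groups. At most 5% mitochondrial UMIs gave Pf4 0.10 and Fli1 −0.00075 in Mk cells, Sdpr −0.10 and Fli1 −0.037 in intermediate cells, Pf4 −0.15 in stem cell-like cells and a share difference of −0.120. Grouping each cell by its own markers gave in Mk cells Pf4 0.41, Plek 0.36, Sdpr 0.21, Gp5 0.13, Cd9 0.33 and Cd63 −0.090, in stem cell-like cells Itga2b 0.19, Pf4 −0.34 and Gp9 −0.13, in dendritic cell-like cells Cd63 −0.035 and Srgn −0.0051, and 0 calls in other groups. A finer Leiden resolution gave Pf4 0.15 in Mk cells, Gp9 −0.075 in stem cell-like cells and a share difference of −0.100. Keeping the members in the clustering gave Fli1 −0.025 in Mk cells, Itga2b 0.36 and Gp9 −0.018 in stem cell-like cells and Ppbp −0.011 in intermediate cells. Without shared barcodes Gp1bb was −0.044 and Vwf −0.047 in Mk cells. DESeq2 gave Gp9 −0.026 in stem cell-like cells, and no filter on low counts gave 2 calls in other groups. The difference between intermediate and Mk cells had 1 called member, Plek, with at most 5% mitochondrial UMIs (1.23, adjusted p = 0.00737), with members kept (1.18, adjusted p = 0.0170), with shared barcodes left out (1.2, adjusted p = 0.0270) and without Idh1-WT 2 (1.27, adjusted p = 0.0246).

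With 1 library left out, calls ranged from 0 to 1 among members in stem cell-like cells, from 1 to 3 in other groups and from 0 to 1 in the difference between intermediate and Mk cells. In Mk cells Pf4 ran from −0.37 to 0.35, Itga2b from −0.26 to 0.41, Gp1bb from −0.15 to 0.37, Vwf from −0.041 to 0.49, Ppbp from −0.15 to 0.85 and Fli1 from −0.015 to 0.27. In stem cell-like cells Pf4 ran from −0.12 to 0.65, Itga2b from −0.35 to 0.16 and Gp9 from −0.26 to 0.20. In intermediate cells Vwf ran from −0.58 to 0.19 and Sdpr from −0.046 to 0.15, with Pf4 from −0.52 to 1.10 in cluster 10 and from −0.013 to 0.33 in cluster 16. The Mk share difference ran from −0.303 to 0.433 and the thinned Sdpr share difference in stem cell-like cells from −9.17 to 0.5. The thinned share of stem cell-like cells with any member differed by −11.0 percentage points at 2000 UMIs (exact permutation p = 0.333) and by −1.20 at 4000 UMIs.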

Other observations

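The median megakaryocyte progenitor-like cell had UMIs of 6 and 5 of the 9 genes in Idh1-R132H and of 6 and 5 in Idh1-WT, the median intermediate cell of 3 and the median stem cell-like cell of 1 in every library. Cells with at least 6 of the 9 made up 51.7% and 44.6% of megakaryocyte progenitor-like cells in Idh1-R132H and 62.2% and 44.4% in Idh1-WT.

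Of the transcription factor genes, Gata1 averaged 107 CPM in megakaryocyte progenitor-like, 47.6 CPM in intermediate and 1.71 CPM in stem cell-like cells. Gata2 averaged 161, 107 and 140 CPM in the same groups, and Runx1 73.2, 47.2 and 58.2 CPM. Gata1 and Gata2 are also markers of the pre-megakaryocyte-erythroid-like group.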
